A study of Mus musculus with 6 samples.

Results

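The genes described here make cholesterol, bring it into cells, move it between compartments or export it, and they were read in the juvenile mouse ovary at postnatal day 14. The 30 symbols were listed by name from what their products do, by a rule that holds no measured value, though earlier results of these data were known when the list was made. Of these, 29 have a row among the 37924 genes of the deposited FPKM table (fragments per kilobase of transcript, scaled to the mapped fragments of the library). Mvd, the enzyme that makes isopentenyl diphosphate, was not analysed here. The cKO group held 3 libraries from mice homozygous for a floxed allele of the study's target gene that also carried Gdf9iCre+, a Cre recombinase under the promoter of an oocyte gene. The control group held 3 libraries from mice homozygous for the same floxed allele without Cre. Each library pooled 3 ovaries, 1 from each of 3 mice of the C57BL/6J/129S7/SvEvBrd background, with equal amounts of total RNA. By design Cre acts in oocytes, and other cells carry the floxed allele undeleted. The libraries hold RNA of the whole ovary, in which fewer cells of a type and less RNA per cell cannot be told apart.

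Cholesterol is built from acetyl-CoA through mevalonate and isoprenoid diphosphates to squalene, which is closed into lanosterol and trimmed to cholesterol. When membranes of the endoplasmic reticulum are poor in sterol, SCAP carries the SREBP transcription factors to the Golgi, where they are cut and released to the nucleus. INSIG proteins hold this complex back when sterol is plentiful. In the mouse follicle the oocyte makes little cholesterol, and the surrounding granulosa cells make it and pass it on. Theca cells use it as the start of steroid hormone synthesis.

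The promoters of 4 genes are printed here because these genes had the smallest unadjusted p-values among the members. Their cKO and control libraries also did not overlap, with Hmgcs1 and Hsd17b7 higher and Insig1 and Ebp lower in cKO. None of the 4 passed the test in limma, with adjusted p-values from 0.0506 (Ebp) to 0.159 (Insig1). Each run goes 5′ to 3′ on the gene's strand, from 250 bases before the annotated start to 50 bases from it, as given by RefSeq for the mouse build GRCm38.p6. Capitals mark the CCAAT box (CCAAT, or ATTGG on the other strand) and the short core of the sterol regulatory element (CACNCCAC), the sequence that SREBPs bind.
Hmgcs1, chr13:119690101-119690400, plus strand: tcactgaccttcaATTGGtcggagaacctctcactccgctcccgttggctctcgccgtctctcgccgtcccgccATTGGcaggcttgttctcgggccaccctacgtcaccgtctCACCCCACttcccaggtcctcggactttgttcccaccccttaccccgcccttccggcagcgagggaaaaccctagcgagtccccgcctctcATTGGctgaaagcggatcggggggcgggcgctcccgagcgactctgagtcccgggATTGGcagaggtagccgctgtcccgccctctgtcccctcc
Hsd17b7, chr1:169969156-169969455, minus strand: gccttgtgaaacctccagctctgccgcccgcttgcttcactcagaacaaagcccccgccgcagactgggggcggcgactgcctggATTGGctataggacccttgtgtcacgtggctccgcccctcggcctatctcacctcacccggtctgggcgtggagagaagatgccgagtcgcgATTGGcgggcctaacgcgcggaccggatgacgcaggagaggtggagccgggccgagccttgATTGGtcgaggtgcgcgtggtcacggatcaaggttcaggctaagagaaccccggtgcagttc
Insig1, chr5:28071162-28071461, plus strand: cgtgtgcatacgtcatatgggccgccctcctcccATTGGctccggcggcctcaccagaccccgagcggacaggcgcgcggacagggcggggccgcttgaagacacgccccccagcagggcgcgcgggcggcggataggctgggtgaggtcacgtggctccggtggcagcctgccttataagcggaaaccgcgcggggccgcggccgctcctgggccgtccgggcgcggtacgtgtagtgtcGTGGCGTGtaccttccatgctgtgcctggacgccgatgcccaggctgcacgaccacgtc
Ebp, chrX:8193463-8193762, minus strand: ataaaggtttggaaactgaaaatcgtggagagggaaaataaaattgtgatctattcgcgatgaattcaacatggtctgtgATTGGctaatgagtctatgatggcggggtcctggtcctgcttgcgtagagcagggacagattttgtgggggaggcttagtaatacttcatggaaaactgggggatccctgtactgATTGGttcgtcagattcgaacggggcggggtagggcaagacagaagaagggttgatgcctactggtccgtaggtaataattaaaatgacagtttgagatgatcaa

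Promoters were found for 24 of the 30 genes, Mvd among them, and some genes had more than 1. Of these 24 genes, 3 held the short sterol element core, which is 12.5% of them against 7.75% of the 10259 tested genes with a promoter in the table. They were Acat2, Hmgcs1 and Insig1. The longer core TCACNCCAC, which contains the short one, was found in Hmgcs1 alone, 137 bases before its start, against 1.47% of the tested genes. CCAAT boxes, sites of the NF-Y factor that acts beside SREBPs, were found in 21 of the 24 genes, or 87.5%, against 42.8% of tested genes. GC boxes (GGGCGG), sites of SP1, were found in 22 of the 24 genes, or 91.7%, against 66.7%. Both strands were searched. A match describes letters in this window and does not mark a bound site.

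Across the 29 genes, levels spanned from 1.17 FPKM, for Abcg1 in cKO 2, to 109.9 FPKM, for Soat1 in cKO 2. Soat1, Fdps, Scap, Hmgcs1 and Npc2 had the highest means, all above 48 FPKM, and Abcg1, Lss, Stard4 and Mylip the lowest. All 29 genes passed the filter on low values. Differences between libraries were small for this set. The highest library was 1.06 times the lowest for Npc1 and 1.93 times for Tm7sf2, the extremes of the set.

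**Figure D1:**
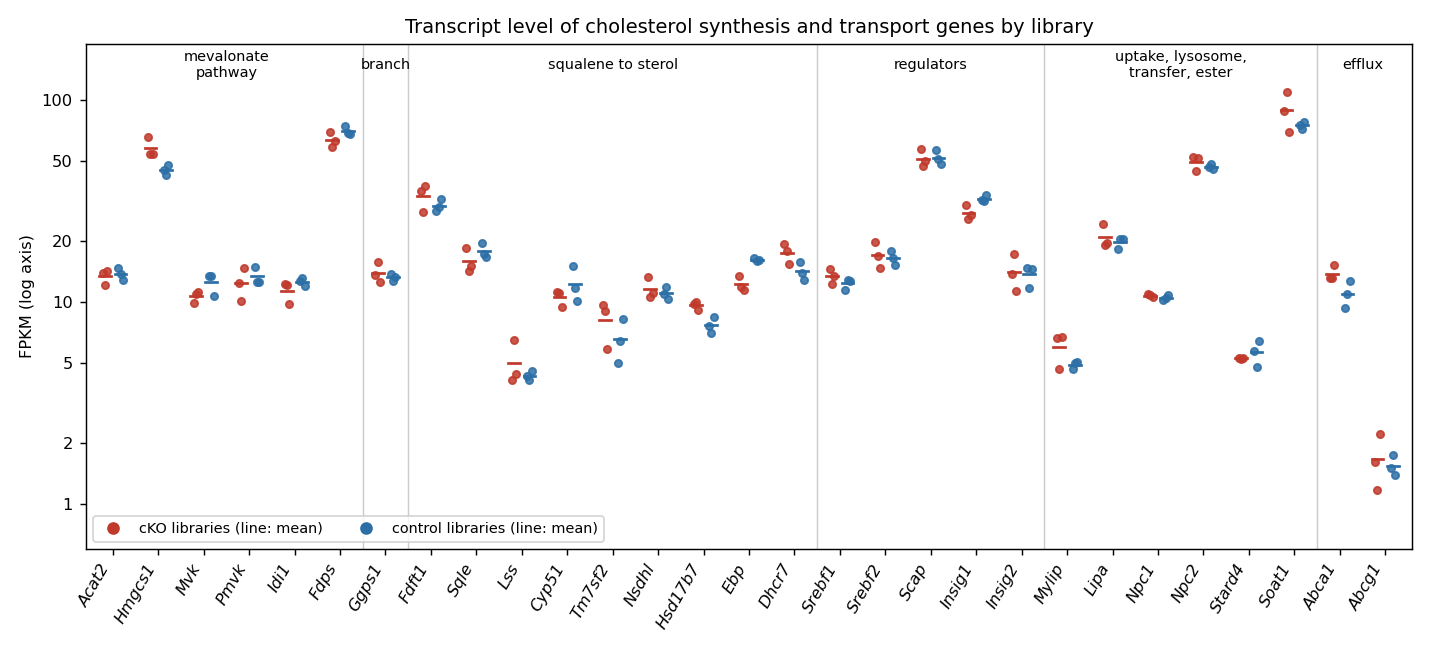
FPKM of 29 cholesterol synthesis and transport genes in each library on a log axis, with cKO libraries left of control libraries for each gene and horizontal lines at the group means. The groups lie close together for most genes. For Soat1 and Lss, cKO 2 lies above the other libraries, at 109.9 and 6.47 FPKM.

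No gene of the 29 passed the test of cKO against control in limma, which was fitted on log2(FPKM + 1) over 14934 genes with an adjusted p below 0.05 (Benjamini-Hochberg) as the threshold. In that fit 4.33% of all genes tested passed, 2.24% as higher and 2.09% as lower. At an unadjusted p below 0.05, 4 of the 29 genes were higher in cKO (Hmgcs1, Hsd17b7, Abca1 and Dhcr7) and 2 lower (Ebp and Insig1). These 6 are 20.7% of the 29, while 24.3% of all genes tested reached that level. Libraries of the groups did not overlap for 5 of the 29 genes, or 17.2%, against 30% of all genes tested (4480 of 14934). Both shares were below those of all genes tested, and these differences were not tested. The median log2 change of the 29 genes was 0.05, and that of all genes tested was also 0.05. For all 29 genes the 95% interval of the log2 change lay within 1 in either direction, and for 19 it lay within 0.5.

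**Figure D2:**
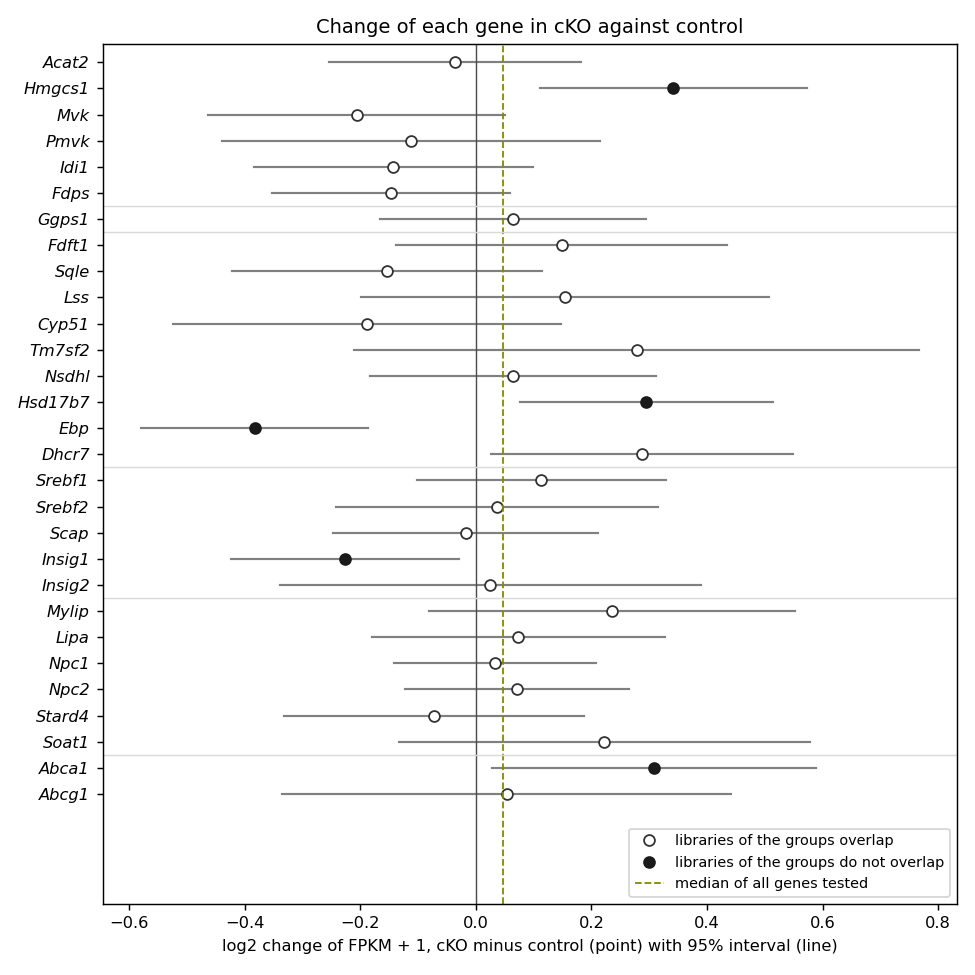
Log2 change of FPKM + 1, cKO minus control, for each gene with its 95% interval, ordered by role from the mevalonate pathway at the top to efflux at the bottom. Filled points mark the 5 genes whose libraries did not overlap between the groups, and the dashed line is the median of all genes tested, at 0.05.

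The mevalonate pathway turns acetyl-CoA into farnesyl diphosphate. Of its 6 measured genes, 5 had a negative log2 change and 1, Hmgcs1, a positive one. Over all genes tested 58.5% had a positive change. Of the 5, Acat2 changed sign in 4 of 17 alternative settings and Pmvk in 1. Hmgcs1 encodes the synthase that makes HMG-CoA, the substrate of the rate-limiting reductase of the pathway. It lies on chromosome 13 (119690379 to 119708260, plus strand, mm10) and shares 557 exon bases with Gm48342 on the opposite strand. Hmgcs1 measured 65.8, 54.1 and 54.0 FPKM in cKO 1 to 3, against 45.3, 42.8 and 48.0 FPKM in control 1 to 3. Every cKO library was above every control library, and cKO 1 was the highest. The means were 57.95 ± 6.79 FPKM in cKO and 45.4 ± 2.602 FPKM in control (SD, n = 3 each). The log2 change was 0.34 (SE 0.10, interval 0.11 to 0.57), and limma gave an adjusted p of 0.095. It passed in 2 of 17 alternative settings, reference gene centring and array weights, with adjusted p-values from 0.0335 to 0.312 over the 17. Among the other 28 genes of the set, those whose log2 levels followed Hmgcs1 most closely over the 6 libraries, by Pearson's r as a description that includes the difference between the groups, were Hsd17b7 (0.884), Dhcr7 (0.79), Srebf1 (0.742), Npc1 (0.735) and Mylip (0.711).

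Fdps, which makes farnesyl diphosphate, was the most abundant of the synthesis enzymes. Fdps shares 1124 of its 4208 exon bases with Gm43738 on the same strand, so part of its value may belong to that gene. It measured 69.9, 58.4 and 62.5 FPKM in cKO 1 to 3, against 74.4, 68.6 and 68.1 FPKM in control 1 to 3. Its cKO 1 value lay among the controls, the other cKO libraries lay below them, and the log2 change of -0.15 had an interval from -0.35 to 0.06. The thiolase gene Acat2, the kinase genes Mvk and Pmvk and the isomerase gene Idi1 ranged from 9.81 to 14.96 FPKM, with log2 changes from -0.21 (Mvk) to -0.04 (Acat2) and adjusted p-values of 0.301 or more in limma. Ggps1, which diverts farnesyl diphosphate to the lipid anchor geranylgeranyl, measured 13.6, 15.7 and 12.6 FPKM in cKO 1 to 3, against 13.8, 12.7 and 13.3 FPKM in control 1 to 3. Its groups overlapped.

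The 9 genes that lead from farnesyl diphosphate to cholesterol split, with 6 positive and 3 negative log2 changes. The positive ones are 66.7% of the 9, against 58.5% of all genes tested. The most abundant was Fdft1, squalene synthase, with 35.55, 27.8 and 37.7 FPKM in cKO 1 to 3, against 28.2, 29.5 and 32.6 FPKM in control 1 to 3. The next was Sqle, squalene epoxidase, a rate-limiting step of the sterol branch, with 18.6, 14.3 and 15.1 FPKM in cKO 1 to 3, against 19.6, 17.3 and 16.7 FPKM in control 1 to 3. The groups overlapped for both, and their log2 changes were 0.15 and -0.15. Fdft1 shares 774 exon bases with Ctsb on the opposite strand, and Ctsb averaged 77.9 FPKM, so part of the Fdft1 value may belong to that gene.

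Ebp, the sterol isomerase that shifts a double bond late in the pathway, had the smallest p of the set. It lies on the X chromosome (8185329 to 8193512, minus strand, mm10). Ebp measured 13.4, 11.85 and 11.45 FPKM in cKO 1 to 3, against 16.45, 16.1 and 16.1 FPKM in control 1 to 3. The control libraries agreed closely, and the highest cKO library lay below the lowest of them. The means were 12.2 ± 1.03 FPKM in cKO and 16.2 ± 0.21 FPKM in control (SD, n = 3 each), and the log2 change was -0.38 (SE 0.08, interval -0.58 to -0.19). Its adjusted p of 0.0506 in limma just missed the threshold, and it passed in 7 of the 17 alternative settings, with adjusted p-values from 0.0252 to 0.207 over them.

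Hsd17b7, which reduces a keto group during removal of methyl groups from the sterol ring, had a change of the opposite sign. It measured 9.83, 10.02 and 9.17 FPKM in cKO 1 to 3, against 7.65, 7.02 and 8.46 FPKM in control 1 to 3. The groups did not overlap, and limma's adjusted p was 0.114 for a log2 change of 0.30 (SE 0.09). It passed with array weights, and its adjusted p over the 17 settings was 0.0488 to 0.367. Dhcr7, the last reductase of 1 route to cholesterol, measured 19.4, 17.9 and 15.5 FPKM in cKO 1 to 3, against 15.9, 13.9 and 12.9 FPKM in control 1 to 3. Its cKO 3 value lay below control 1, so the groups overlapped by that pair. The log2 change of Dhcr7 was 0.29 (SE 0.11), for which limma gave an adjusted p of 0.175.

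The other 4 genes of this branch were Lss, lanosterol synthase, Cyp51, lanosterol demethylase, Tm7sf2, a sterol reductase, and Nsdhl, a dehydrogenase. They ranged from 4.11 to 15.02 FPKM, with log2 changes from -0.19 (Cyp51) to 0.28 (Tm7sf2) and adjusted p-values of 0.459 or more. Tm7sf2 had the widest interval of the set, from -0.21 to 0.77. It shares 532 exon bases with Vps51, which averaged 22.8 FPKM, and Cyp51 shares 166 with Akap9. Summed over the 15 measured enzymes from Acat2 to Dhcr7 without Ggps1, the level was 319.1, 276.9 and 286.2 FPKM in cKO 1 to 3, against 298.7, 282.5 and 284.1 FPKM in control 1 to 3. These sums overlap, with cKO 1 the highest and cKO 2 the lowest of the 6 libraries.

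Of the 5 regulators, Insig1 alone had libraries that did not overlap, which is 20% of them against 30% of all genes tested. Insig1 is itself induced by SREBPs, and its protein then retains SCAP in the endoplasmic reticulum. It measured 30.4, 25.8 and 27.0 FPKM in cKO 1 to 3, against 32.2, 31.6 and 33.9 FPKM in control 1 to 3. The means were 27.8 ± 2.37 FPKM in cKO and 32.6 ± 1.15 FPKM in control (SD, n = 3 each), and limma's adjusted p was 0.159 for a log2 change of -0.23 (SE 0.08). Insig1 and Hmgcs1, both known targets of SREBPs and both with the short element core in the printed promoters, had log2 changes of opposite sign. Neither gene passed the test, and the contrast between them was not tested.

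Insig2, the paralog that SREBPs do not induce, measured 13.8, 17.3 and 11.35 FPKM in cKO 1 to 3, against 14.8, 11.8 and 14.7 FPKM in control 1 to 3. Its cKO libraries held both the highest and the lowest value. Srebf2, the main activator of cholesterol synthesis, measured 19.9, 16.9 and 14.7 FPKM in cKO 1 to 3, against 18.0, 16.6 and 15.2 FPKM in control 1 to 3. Srebf1, whose products favour fatty acid synthesis, measured 14.7, 12.3 and 13.5 FPKM in cKO 1 to 3, against 11.5, 12.9 and 12.7 FPKM in control 1 to 3. Both overlapped between the groups, with log2 changes of 0.04 for Srebf2 and 0.11 for Srebf1. Scap, the sterol sensor and escort, measured 57.1, 47.4 and 49.8 FPKM in cKO 1 to 3, against 56.75, 51.1 and 48.3 FPKM in control 1 to 3. SREBPs are controlled by cutting of the protein, so these transcript levels do not report their activity.

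Transport and storage came next. Soat1 esterifies cholesterol for storage in droplets and had the highest mean of all 29 genes. It measured 88.2, 109.9 and 69.7 FPKM in cKO 1 to 3, against 75.25, 71.9 and 78.2 FPKM in control 1 to 3. The cKO libraries held both extremes, and the spread was 89.2 ± 20.1 FPKM in cKO and 75.1 ± 3.17 FPKM in control (SD, n = 3 each). The mean log2 level of 8 genes of theca and steroid-making cells was 6.30, 6.69 and 5.57 in cKO 1 to 3, against 6.14, 5.28 and 5.08 in control 1 to 3. Within cKO the order of the libraries was the same for Soat1 and for this list, but within control it was not, since control 3 was the highest for Soat1 and the lowest for the list. The part of these cells in the Soat1 values was not tested.

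Npc2, the lysosomal protein that hands cholesterol to NPC1, measured 52.1, 44.7 and 51.6 FPKM in cKO 1 to 3, against 46.6, 48.4 and 45.8 FPKM in control 1 to 3. Npc1, its membrane partner, varied least of the set, with all libraries between 10.3 and 10.9 FPKM. Lipa, the lysosomal acid lipase, Stard4, a carrier of sterol between membranes, and Mylip, a ligase that marks the LDL receptor for breakdown, ranged from 4.67 to 24.4 FPKM. Of these 3, Mylip had the largest log2 change, at 0.24 with an adjusted p of 0.335, and its cKO 2 value of 4.67 FPKM was level with that of control 1. Libraries of the groups overlapped for all 6 genes of uptake, lysosome, transfer and storage, while 30% of all genes tested had no overlap. Npc1 shares 511 exon bases with Rmc1 on the opposite strand.

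Abca1, which exports cholesterol to apolipoproteins and is induced by oxysterol-sensing LXR receptors, lies on chromosome 4 (53030787 to 53159895, minus strand, mm10). It measured 13.1, 13.1 and 15.3 FPKM in cKO 1 to 3, against 9.38, 11.03 and 12.65 FPKM in control 1 to 3. The groups did not overlap, but control 3 and the lower cKO libraries lay within 1 FPKM of each other. For a log2 change of 0.31 (SE 0.12) limma gave an adjusted p of 0.176. Abcg1, its partner in export to lipoproteins, measured 1.62, 1.17 and 2.23 FPKM in cKO 1 to 3, against 1.5, 1.75 and 1.39 FPKM in control 1 to 3, and overlapped. Mylip and Srebf1 are LXR targets as well. Of these 4 targets, Abca1 alone had libraries that did not overlap, while this was so for 30% of all genes tested.

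**Figure D3:**
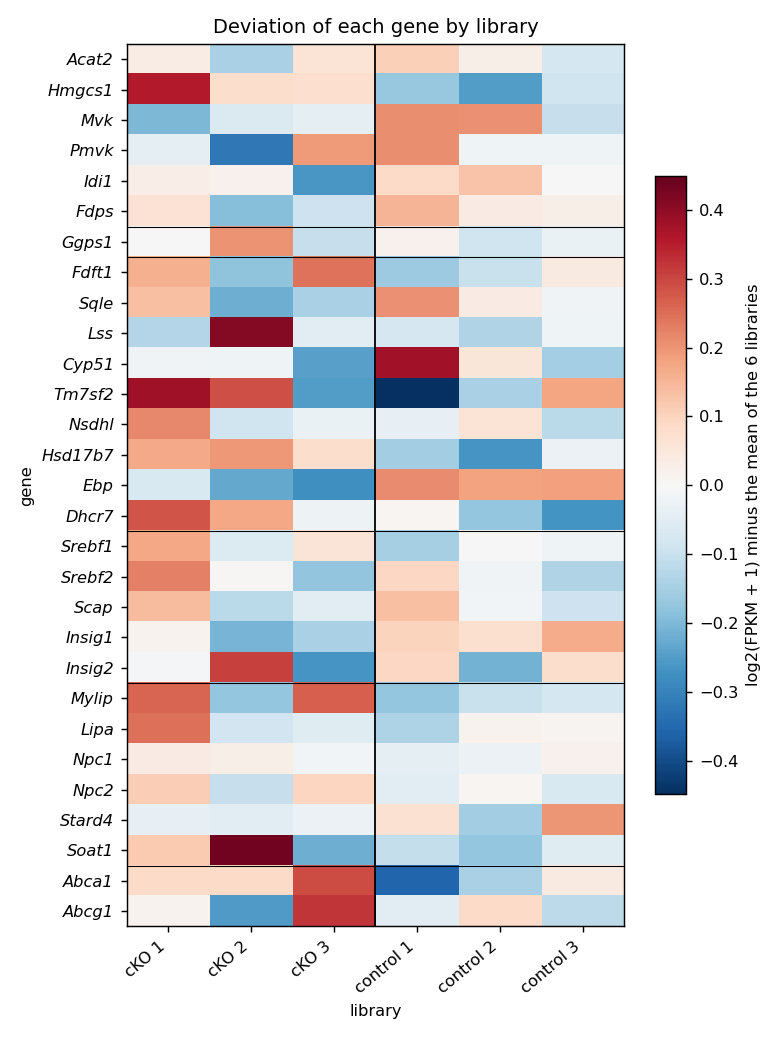
Deviation of log2(FPKM + 1) from the mean of the 6 libraries for each gene (rows, by role) and library (columns, cKO left of control). Red is above the mean and blue below it. The column of cKO 1 is mostly red, with 22 of 29 genes above their mean, a count not made over all genes. Library cKO 1 also has the lowest mitochondrial share of summed FPKM, 7.3%.

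The libraries did not contribute alike. Mitochondrial genes took 7.3%, 13.9% and 10.7% of summed FPKM in cKO 1 to 3, against 11.9%, 13.8% and 14.2% in control 1 to 3, so cKO 1 stood lowest. FPKM is relative to the whole library, and the part of this share in the deviations that follow was not tested. Of the 29 genes, 10 were highest in cKO 1 and 7 in control 1, while 10 were lowest in cKO 2 and 7 in cKO 3. These counts were not made over all genes. The median deviation from each gene's own mean was 0.08, -0.06 and -0.04 on the log2 scale in cKO 1 to 3, against 0.01, -0.02 and -0.02 in control 1 to 3. Over all genes tested the same deviations were 0.06, -0.04 and 0.02 in cKO 1 to 3, against -0.03, -0.02 and -0.02 in control 1 to 3. The coefficient of variation within a group had a median of 11.7% in cKO and 6.88% in control for the 29 genes, against 11.7% in cKO and 8.70% in control for all genes tested. It was larger in cKO for 22 of the 29 genes (75.9%) and for 62.3% of all genes tested.

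Of 40 other genes of sterol handling, 37 passed the filter on low values. Of these, 2 rose in cKO and none fell, while 11 reached an unadjusted p below 0.05, 6 higher and 5 lower. The 11 are 29.7% of the 37, against 24.3% of all genes tested, and 4.33% of all genes tested passed, so these counts lie near the background. Vldlr, a receptor for triglyceride-rich lipoproteins, measured 14.8, 13.7 and 13.7 FPKM in cKO 1 to 3, against 9.87, 9.85 and 9.91 FPKM in control 1 to 3. It rose by 0.47 on the log2 scale (SE 0.08, limma adjusted p 0.0275), and each group was tight and apart from the other. Cyp46a1, which makes an oxysterol by hydroxylating cholesterol, measured 2.03, 2.01 and 2.37 FPKM in cKO 1 to 3, against 0.763, 0.848 and 1.32 FPKM in control 1 to 3. It rose by 0.67 on that scale (SE 0.14, limma adjusted p 0.0483). For this low gene the pseudocount sets the size, and with a pseudocount of 0.1 the log2 change was 1.08. The median log2 change of the 37 genes was 0.05, the same as over all genes tested.

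Of 16 genes of fatty acid synthesis, a pathway driven by SREBPs and LXR receptors as well, 1 rose and none fell. Of all genes tested 4.33% passed. At an unadjusted p below 0.05, 6 of the 16 were higher and 3 lower. These 9 are 56.2% of the 16, against 24.3% of all genes tested. Libraries of the groups did not overlap for 7 of the 16, or 43.8%, against 30% of all genes tested. Elovl6, which lengthens fatty acids, measured 18.15, 21.5 and 12.99 FPKM in cKO 1 to 3, against 9.80, 8.15 and 8.81 FPKM in control 1 to 3. It rose by 0.88 on the log2 scale (SE 0.17, limma adjusted p 0.0378). All cKO libraries lay above the controls, in the same order within cKO as the theca and steroid-making list. Within control the order differed, with control 2 lowest for Elovl6 and control 3 lowest for the list, whose part in this result was not tested. The median log2 change of these 16 genes was 0.16, against 0.05 over all genes tested. Vldlr was called in 11, Cyp46a1 in 8 and Elovl6 in 10 of the alternative settings, which numbered 16 for Cyp46a1 and 17 for the other two. All 3 calls were lost when any 1 of cKO 1, cKO 2, control 1 and control 2 was left out, that of Cyp46a1 also without cKO 3 and that of Elovl6 also without control 3. Adjusted p-values over these settings ran from 0.0107 to 0.153 for Vldlr, from 0.0171 to 0.201 for Cyp46a1 and from 0.0179 to 0.17 for Elovl6.

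**Figure D4:**
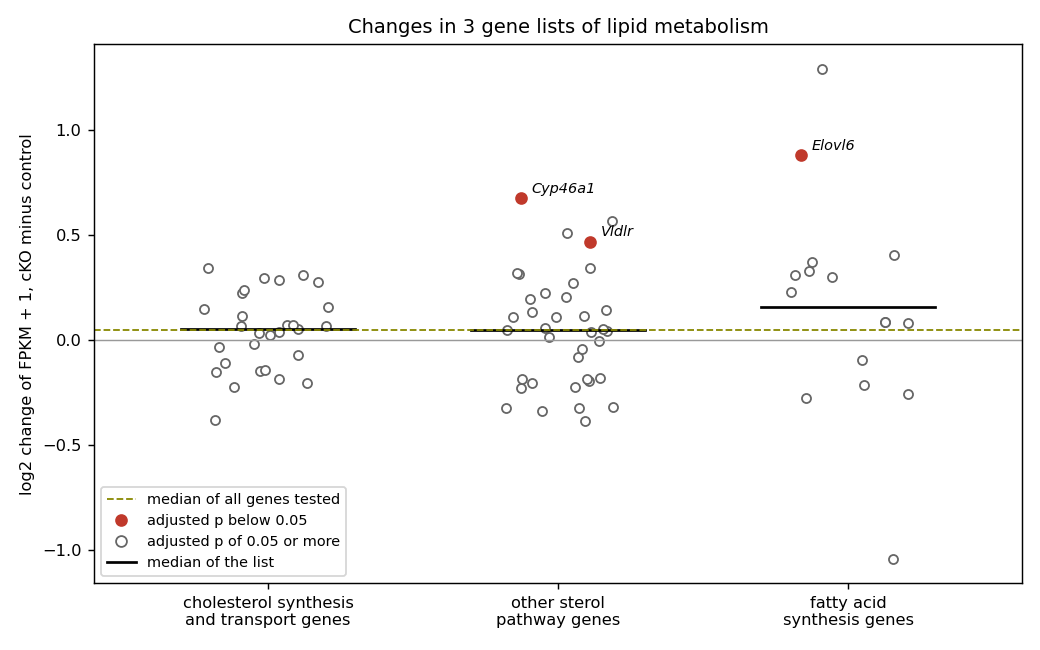
Log2 change of FPKM + 1, cKO minus control, for every tested gene of the cholesterol synthesis and transport set and of 2 related lists, 1 point per gene with its list's median as a black line. Filled points mark Vldlr, Cyp46a1 and Elovl6, the 3 genes that passed the test, and none of them is in the first list.

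Markers of several ovarian cell types differed between the groups. Over all genes tested 2.24% passed as higher and 2.09% as lower. Of 14 granulosa cell genes 5 fell and none rose, while 9 had negative and 5 positive log2 changes. Foxl2 (0.43) and Kitl (0.73) were higher in cKO without overlap, at limma adjusted p-values of 0.128 and 0.0854. The granulosa list summed to 2300 to 2710 FPKM in cKO and 3450 to 4380 FPKM in control. Inha held the largest part of that sum, at 1101 to 2239 FPKM. Of 12 oocyte genes 4 rose and none fell, while 10 had positive and 2 negative log2 changes (Bmp15 at -0.67 and Oosp1 at -0.05). The oocyte list summed to 1820 to 2810 FPKM in cKO and 1330 to 1480 FPKM in control. Padi6, Zp3 and Zp2, all among the genes that rose, held the largest parts of that sum. Of 14 genes of dividing cells 7 fell, with sums of 506 to 574 FPKM in cKO and 750 to 833 FPKM in control. The sum over 8 theca and steroid-making genes was 1580 to 2000 FPKM in cKO and 1510 to 1750 FPKM in control. Most of it was Hsd3b1, at 1165 to 1528 FPKM, with a log2 change of -0.05. The other 7 had positive log2 changes, and the median of the 8 was 0.63. The sum over 12 macrophage genes was 86.4 to 133 FPKM in cKO and 75.6 to 101 FPKM in control. No gene of the theca or macrophage list passed. Of 7 tested adipose genes Plin1 rose, the other 6 had negative log2 changes of which none passed, and the 9 listed genes summed to 45.3 to 53.3 FPKM in cKO and 48.3, 54.1 and 92.1 FPKM in control 1 to 3. Of the adipose genes Lep was at 0 in some libraries. Of 6 red blood cell genes none passed, and their sum was 924 to 4180 FPKM in cKO and 2020 to 6280 FPKM in control. No listed marker of granulosa cells, oocytes, theca cells or macrophages was at 0 in any library. The part of these cell types in the values of the cholesterol genes was not tested.

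**Figure D5:**
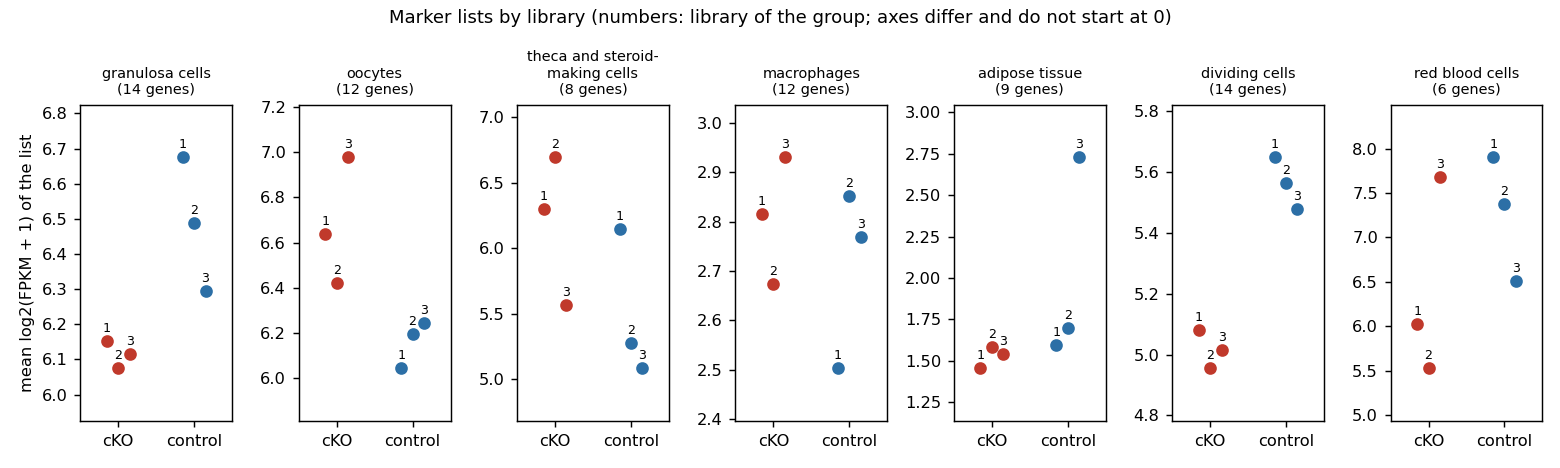
Mean log2(FPKM + 1) of 7 marker lists in each library, with cKO left of control and the library number beside each point; each panel has its own axis, which does not start at 0. Granulosa, oocyte and dividing cell lists separate the groups. The adipose list also does, with control 1 just above the cKO libraries and control 3 far above the rest.

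Libraries held an estimated 19.6 to 24.9 M fragments (M, mega), so 1 FPKM in a transcript of 2 kb stood for 36.3 to 46.1 fragments.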

How the data were processed

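Transcript levels were measured in 6 libraries of pooled mouse ovaries, grouped by their genotype label. The authors deposited FPKM per Ensembl gene. Per the submitters' processing notes, which assign no roles, TopHat2 2.0, Cufflinks 2.0 and mm10 were used. Their annotation, strand setting and filters were not given in the sources used here. Because FPKM is relative to all fragments of a library, a change in abundant transcripts shifts all other values, and genes that overlap can share fragments.

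From these values, log2(FPKM + 1) was fitted with limma 3.58.1 in R 4.3.3 (eBayes with a mean-variance trend), cKO minus control, over 14934 genes with a mean FPKM of at least 0.5. P-values were adjusted by Benjamini-Hochberg over all genes tested, and rose and fell are used of genes with an adjusted p below 0.05. Intervals are 95% and cover each gene alone. Fold changes on this scale understate the change of low genes. The FPKM filter removed none of the 29 genes. The members, lists, tests and alternatives were chosen with earlier results of these data known. Values in every library are given for genes with an unadjusted p below 0.05, for the 2 most abundant of each role and for the SREBP and INSIG genes. From each related list the genes that passed are named. A gene was matched by symbol, or for other lists by Ensembl identifier.

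Depth was estimated from FPKM values below 0.15 in genes with 1 transcript and at least 1500 exon bases, each read as 1 fragment, with 150 bases taken off the length, so it is approximate. Gene coordinates and exon overlaps were read from GENCODE M21 (the mm10 assembly) and are 1-based. The procedure was tested on simulated data with planted log2 changes of 1 or 2, larger than any change of the 29 genes. That test does not show whether changes as small as theirs would be found. The alternatives were 2 other pseudocounts, 2 other filters, 4 scalings, robust eBayes, array weights, and fits without 1 or 2 libraries. The targeted gene is not reported here. Each pool is called a biological replicate in the labels' protocols.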

Additional observations from a re-analysis of the deposited data

How the results depend on the processing

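No paired analysis was possible because replicate numbers are absent from the labels, and library numbers here are names in accession order. Of the 29 genes, 17 kept the sign of their log2 change under all 17 alternatives, including the 6 with an unadjusted p below 0.05. The other 12 changed sign in at least 1, and their log2 changes were at most 0.15 in size. The genes passing as higher in cKO were 1 with reference gene centring (Hmgcs1) and 2 with array weights (Hmgcs1 and Hsd17b7), and 0 in the other settings. Over all genes, 842 passed as higher with reference gene centring and 1041 with array weights. Ebp was the 1 gene passing as lower with pseudocounts of 0.1 or 0.5, quantile normalisation, a mean FPKM of at least 2, median centring, robust eBayes or array weights. In those settings 313 to 743 of all genes passed as lower. Without any 1 library, 0 of the 29 passed in either direction.

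The median log2 change of the 29 genes was 0.0046 with quantile normalisation, -0.0119 with median centring and 0.16 with reference gene centring, where the median of all genes was 0.0029, -0.02 and 0.16. At an unadjusted p below 0.05, median centring gave 2 higher and 4 lower genes, and the lower were 1 with reference gene centring or rescaling without mitochondrial genes. Without 1 library the higher ranged from 1 to 5 and the lower from 1 to 4. Libraries did not overlap for 9 genes with reference gene centring, 13 without control 3 and cKO 3 together, and 6 to 10 without 1 library, where fewer libraries make an overlap less likely. For these counts and those at an unadjusted p, shares over all genes are given here for the main fit alone. The counts in other settings therefore cannot be set against a background.

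Over all genes, 334 rose and 312 fell. With no filter these were 4 and 24, with array weights 1041 and 743, with reference gene centring 842 and 258, with median centring 254 and 577, with quantile normalisation 270 and 421, and without control 3 and cKO 3 together 204 higher. Without 1 library they ranged from 0 to 307 higher and from 2 to 353 lower, with 0 and 2 without cKO 1 or control 2, 1 and 4 without control 1, and 40 and 38 without cKO 2. Other sterol genes passing numbered 0 with no filter or without control 3 and cKO 3 together, 6 with array weights, and 0 to 3 without 1 library. Fatty acid genes passing numbered 0 with no filter or quantile normalisation, 2 with a mean FPKM of at least 2, 4 with reference gene centring or array weights, and 0 to 1 without 1 library. The cause of these shifts was not tested. Depth limits the lowest gene, Abcg1, most.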

Other observations

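Fads2, the desaturase of polyunsaturated fatty acid synthesis, had the largest log2 change of the related lists and was chosen for naming after its values were seen. It measured 104.5, 118.0 and 63.4 FPKM in cKO 1 to 3, against 57.6, 32.4 and 27.15 FPKM in control 1 to 3. The groups did not overlap, and limma's adjusted p was 0.0637 for a log2 change of 1.29 (SE 0.31), so it did not pass. It passed in 3 of 17 alternative settings, with adjusted p-values from 0.0392 to 0.229. Cyp27a1, which makes an oxysterol in mitochondria, was also named after its values were seen, with 8.19, 9.12 and 7.21 FPKM in cKO 1 to 3, against 4.35, 5.18 and 6.09 FPKM in control 1 to 3, and an adjusted p of 0.059 in limma. It passed in 4 of 17 alternative settings, with adjusted p-values from 0.0287 to 0.216.

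Msmo1, the methyl sterol oxidase that precedes Nsdhl in the removal of methyl groups, measured 29.9, 26.75 and 32.4 FPKM in cKO 1 to 3, against 39.2, 37.6 and 36.4 FPKM in control 1 to 3. Erg28, a scaffold of the same complex, measured 36.9, 36.9 and 37.0 FPKM in cKO 1 to 3, against 42.7, 42.7 and 40.9 FPKM in control 1 to 3. Both were picked after their values were seen. The groups did not overlap for either gene, and the adjusted p-values were 0.0775 for Msmo1 and 0.146 for Erg28, while Hsd17b7 of the same complex had a positive log2 change of 0.30. Msmo1 passed in 3 of 17 alternative settings, with adjusted p-values from 0.0365 to 0.26, and Erg28 in 0 of 17. The 4 genes of this step among the lists (Msmo1, Nsdhl, Hsd17b7 and Erg28) did not all have changes of the same sign.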
